A study of Mus musculus with 6 samples.

Results

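PU.1 peaks that were called in macrophages after lipopolysaccharide (LPS) but not before it, and that carried no p300 peak in either condition, numbered 14256 of the 74365 PU.1 peaks called after LPS on chromosomes 1 to 19 and X (19.2%). They were chosen by overlap of the authors' peak lists: each is an LPS PU.1 peak sharing not even 1 bp with a peak of the untreated PU.1 list or of either p300 list. They made up 94.1% of the 15145 LPS-only PU.1 peaks. Of the remaining LPS-only peaks, 722 overlapped a p300 peak called after LPS and 167 overlapped an untreated p300 peak alone. A peak of H3K4me1, histone H3 mono-methylated at lysine 4, measured in untreated cells, overlapped 2982 of the 14256 peaks, and 11274 had none. These are called below the marked and the unmarked peaks.

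The study mapped PU.1, p300 and H3K4me1 by chromatin immunoprecipitation and sequencing (ChIP-seq) in primary macrophages grown for 7 days from bone marrow of female Fvb mice. All cultures were grown with L929-conditioned medium, and the labels give no genotype beyond the strain. Cells were untreated or received LPS, a bacterial cell-wall component, at 10 ng/ml for 2 h. PU.1 was measured in 1 library per condition and p300 in 2 biological replicates per condition, while H3K4me1 and input (chromatin without precipitation) had 1 library each, from untreated cells. No H3K4me1 after LPS was analysed here. Whether the PU.1 libraries came from the same cultures as the others is not stated, and how many mice were pooled is not given.

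PU.1 is an ETS-family transcription factor needed to form and maintain macrophages, and in these cells it occupies much of their enhancer repertoire. p300 is an acetyltransferase and coactivator whose presence at a distal site is widely used to mark active enhancers, and H3K4me1 marks enhancers both active and poised. LPS acts through TLR4 and turns on an inflammatory gene programme within hours.

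The PU.1 and p300 lists chose these peaks, so PU.1 and p300 values are a description of them without a test. H3K4me1 did not enter the choice of the peaks and only made the split into marked and unmarked. Distances to PU.1 and p300 peaks of the lists used are bounded by the choice, since overlap was removed. With 1 PU.1 library per condition there is no replicate error for PU.1. All intervals are 95% exact intervals and cover counting error only. In such bulk samples, binding in more cells and more binding per cell cannot be told apart. The libraries held 5744811 to 7828655 reads, of which 5503587 to 6428281 distinct positions on chromosomes 1 to 19 and X were used. A peak therefore rests on few reads: the marked peaks had a median of 8 untreated and 15 LPS PU.1 reads, and the unmarked ones 4 and 9. Comparison classes were counted in the same way: 49876 LPS peaks overlapping an untreated PU.1 peak and no p300 peak (shared peaks), 13551 peaks of the untreated PU.1 list alone without p300 (untreated-only peaks) and the 722 LPS-only peaks with LPS p300.

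PU.1 signal was already present at these sites in untreated cells. Over the called intervals, untreated PU.1 reads stood 4.60 times (4.49 to 4.72) above input at the marked peaks and 3.46 times (3.40 to 3.52) at the unmarked peaks. After LPS both kinds reached a similar height over input, 7.58 times (7.40 to 7.77) and 7.73 times (7.60 to 7.85). Shared peaks in untreated cells stood at 14.2 times input with H3K4me1 and 10.5 times without. A signal where no peak was called was not particular to the LPS-only peaks. Untreated-only peaks stood after LPS at 4.53 times input with H3K4me1 and 3.50 times without. The untreated signal was also shaped as a peak: reads of the untreated library within 100 bp of the centre were 4.42 times (4.34 to 4.50) as dense as beyond 1500 bp at marked peaks and 7.92 times (7.80 to 8.04) at unmarked peaks. Untreated-only peaks gave 4.41 times (with H3K4me1) and 7.335 times (without) in the LPS library. Only 484 of the 14256 peaks held no untreated PU.1 read, 21 of them marked and 463 unmarked. At the other end, 365 peaks (2.56%) held at least 24 untreated reads, the median of the peaks that were called in untreated cells.

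The rise with LPS was moderate. The PU.1 read sum, scaled to depth, was 2.01 times (2.00 to 2.03) higher after LPS over all 14256 peaks. It was 1.65 times higher (1.63 to 1.67) at the marked peaks and 2.23 times (2.21 to 2.26) at the unmarked ones. These values describe peaks that were chosen by this contrast in 1 library per condition, and the kinds also differed in their untreated reads, so no difference between marked and unmarked peaks was tested. The LPS library was the higher in 97.7% of the peaks, which the choice of LPS-only peaks largely sets. The untreated-only peaks, chosen in the opposite way, gave the opposite picture, 0.558 with H3K4me1 and 0.478 without, while shared peaks gave 0.929 and 1.00. In both classes chosen by a difference in calling, the marked sites pooled over all reads lay nearer to 1 than the unmarked ones. At untreated-only peaks this held by score, with 0.578 marked and 0.487 unmarked at scores of 60 to 80. Matched on PU.1 reads over both libraries, unmarked untreated-only peaks lay nearer to 1 in every range, with 0.619 marked and 0.658 unmarked at 40 to 79 reads. The peaks with LPS p300 rose 2.02 times where marked and 2.90 times where unmarked.

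**Figure D1:**
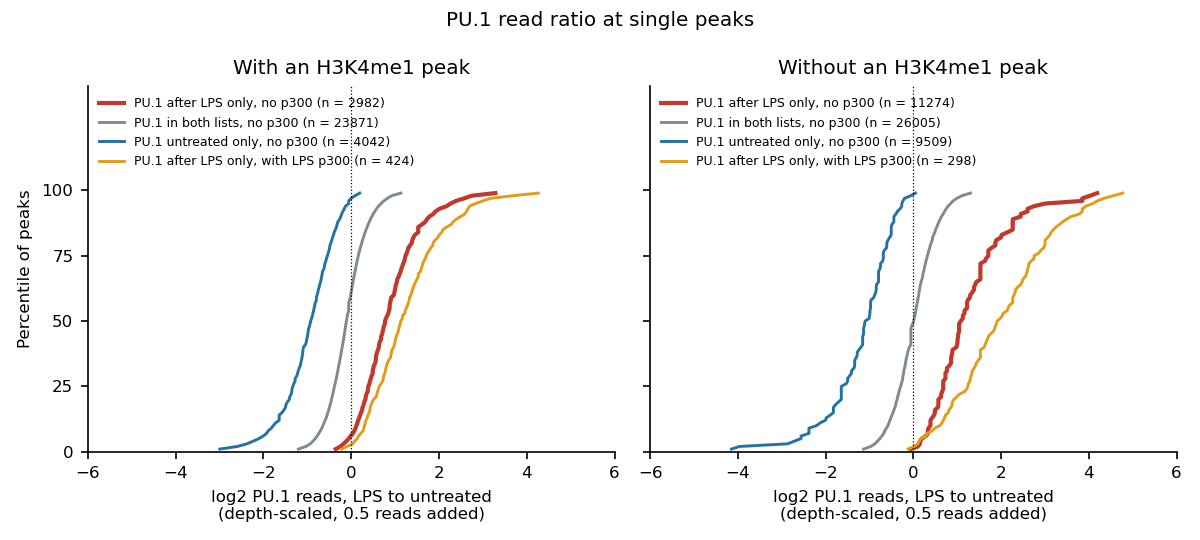
Percentile of peaks (y axis) against the log2 ratio of LPS to untreated PU.1 reads per peak, scaled to depth and with 0.5 reads added (x axis), in 4 peak classes with (left) and without (right) an H3K4me1 peak. The medians of the LPS-only peaks without p300 lie at 0.77 (marked) and 1.08 (unmarked), and those of the untreated-only peaks at −0.92 and −1.10.

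The marked peaks had the lower ratio at every depth and score examined apart from the thinnest peaks. Among peaks with 20 to 39 PU.1 reads over both libraries, the ratio was 1.77 marked and 2.12 unmarked. With 40 to 79 reads it was 1.52 and 1.70, and with at least 80 reads 1.21 and 1.32. Under 10 reads the order turned, 7.32 marked against 6.61 unmarked. By the authors' score, the ratio ran from 1.43 and 1.92 at scores of 50 to 60 to 2.64 and 4.11 at scores of at least 150. The ratio was also lower in the tercile with most H3K4me1 than in that with least. In the marked peaks it was 1.82 in the tercile with least H3K4me1 and 1.52 in that with most, and in the unmarked peaks 2.42 and 2.11. PU.1 reads rose between the same terciles, with LPS medians of 14 and 18 (marked) and 8 and 11 (unmarked). The terciles were not matched on reads, so a fall with H3K4me1 cannot be told apart from one with read number. A lower ratio at marked sites was not particular to these peaks. Shared peaks gave 0.926 marked and 0.997 unmarked at 40 to 79 reads, and 0.909 and 1.02 at scores of 100 to 150. At 10 to 19 reads their values were nearly equal, 1.041 and 1.036. In untreated-only peaks the marked sites were lower by reads, 0.521 and 0.529 at 20 to 39, but higher by score.

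Most of the peaks were weak calls. The score, 10 times the −log10 p of the authors' caller, had a median of 68.4 against a list minimum of 50, and quartiles of 58.7 and 82.7. The shared peaks had a median of 135. A score of at least 100 was reached by 11.4% of the LPS-only peaks without p300 (1624 peaks) and by 66.9% of shared peaks. Near the cutoffs, 413 peaks had a score under 51 and 152 lay within 100 bp of an untreated PU.1 peak without touching it, with a PU.1 ratio of 1.56 (1.47 to 1.65). Just outside the rule, the 65 shared peaks whose overlap with an untreated peak was at most 100 bp had a ratio of 1.83.

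Few single peaks exceeded a 2-fold rise on their own. A peak was called higher where the whole exact interval of its LPS to untreated ratio lay above 2, among peaks with at least 40 reads over both libraries. Of all 41056 such LPS PU.1 peaks, 214 were called higher, a background of 0.521%, and 13 were called lower (0.0317%). Among the LPS-only peaks without p300, 971 had enough reads, and 49 of these (5.05%) were called higher and 0 lower. By kind, the calls were 23 of 643 marked (3.58%, 2.28 to 5.32) and 26 of 328 unmarked (7.93%, 5.24 to 11.4). The rule used this contrast, so nothing is read from the share against the background. The other 13285 peaks were under this read minimum and were not assessed by it. Without a minimum, 299 of the 14256 peaks (2.10%) were called higher, 64 marked and 235 unmarked, against a background of 0.738% of all LPS PU.1 peaks. Of these, 250 had under 40 reads, and 101 of the 250 had no untreated read. The shares were then 2.15% of marked and 2.08% of unmarked peaks, so the higher share of the unmarked kind was seen with the read minimum alone. In the comparison classes, 40 of 31074 shared peaks (0.129%) and 55 of 275 LPS-only peaks with LPS p300 (20.0%) were called higher.

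The clearest single rise without H3K4me1 was on chromosome 16 at 84720909 to 84721417 (build mm9), with 1 untreated and 42 LPS PU.1 reads against 3 input reads. The scaled ratio was 40.4, with a wide interval of 6.86 to 1631. In untreated replicates 1 and 2 the interval held 5 and 1 p300 reads, and after LPS it held 3 and 10, so the conditions overlapped. A peak on chromosome 12 at 17111890 to 17112420 went from 1 to 39 PU.1 reads (37.5, 6.34 to 1517) with p300 at 0 and 0 reads, then 2 and 3. Its nearest H3K4me1 peak was 93514 bp away. Within 1 kb of its centre it held 6 H3K4me1 reads and 1 input read, a log2 ratio of 1.80 from few reads.

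A pair of unmarked peaks stood 1686 bp apart on chromosome 4. The peak at 16123766 to 16124159 went from 3 to 47 PU.1 reads (15.1, 4.85 to 75.6), and that at 16125845 to 16126248 from 6 to 66 (10.6, 4.61 to 29.8). The second was also the unmarked peak with the third highest score, 301.9, and it held no p300 read in either untreated replicate or in LPS replicate 1, but 6 in LPS replicate 2. Both therefore gained PU.1 reads at the same place, 13833 bp or more from the nearest H3K4me1 peak. The fifth unmarked rise, on chromosome 6 at 66998869 to 66999373, went from 3 to 43 reads (13.8, 4.41 to 69.4). The highest unmarked scores were 312.1, on chromosome 17 at 34386730 to 34387100 (9 to 65 reads), and 304.1, on chromosome 3 at 89010809 to 89011227 (6 to 47 reads). The first of these stood only 714 bp from an H3K4me1 peak and 676 bp from an untreated PU.1 peak.

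Among marked peaks, the rise with the highest lower bound was on chromosome 6 at 100752331 to 100753169, with 10 untreated and 87 LPS reads (8.36, 4.34 to 18.04). A p300 peak called after LPS alone stood 1329 bp from it, although the peak itself held 6 and 6 untreated and 4 and 8 LPS p300 reads. On chromosome 10 at 77592683 to 77593165, PU.1 reads went from 5 to 55, and on chromosome 13 at 37597963 to 37598435 from 4 to 44. The p300 peak gained after LPS that was nearest to the latter lay 467545 bp away. Its p300 reads were 1 and 2 untreated and 5 and 8 after LPS, which do not overlap but are too few to compare with the replicate spread. The remaining marked rises were on chromosome 7 at 129471367 to 129471935 (11 to 76 reads) and on chromosome 13 at 24579262 to 24580276 (6 to 49 reads).

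Some peaks met the rule without a rise. The highest score of all, 461.6, belonged to a marked peak on chromosome 6 at 145072374 to 145072654 that held 111 untreated and 102 LPS PU.1 reads (ratio 0.883, 0.668 to 1.17), yet its nearest untreated PU.1 peak was 1523 bp away. The next marked scores, 273.9 and 250.8, belonged to peaks that rose in reads: chromosome 4 at 154306865 to 154307748 (33 to 112) and chromosome 13 at 44499314 to 44499894 (10 to 48). The lowest marked ratios were 0.577 (0.370 to 0.886) on chromosome 6 at 87486916 to 87487200, from 60 to 36 reads, and 0.655 on chromosome 2 at 72879852 to 72880219, from 44 to 30 reads. The lowest unmarked ratios were 0.729 on chromosome 13 at 35762291 to 35762564 (29 to 22 reads) and 0.769 on chromosome 15 at 6339527 to 6339946 (40 to 32 reads). In all, 325 of the 14256 peaks (2.28%) had no more scaled PU.1 reads after LPS than before, 186 of them marked. Such peaks were near the calling limit, with a median score of 56.8, and 5 of them had a score of at least 100.

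H3K4me1 was found at fewer of these peaks than in any of the 3 comparison classes. The share overlapping an H3K4me1 peak was 20.9% (20.3 to 21.6), against 29.8% (29.1 to 30.6) of untreated-only peaks, 47.9% (47.4 to 48.3) of shared peaks and 58.7% (55.0 to 62.3) of LPS-only peaks with LPS p300. The mark was measured before LPS, and the difference stands over sites of 1 H3K4me1 library, so no test across libraries was possible. The lower share than at shared peaks held in each score range: 25.7% against 40.8% at scores of 50 to 60, 18.4% against 36.3% at 60 to 80, and 28.8% (22.8 to 35.4) against 58.8% at 150 or more.

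**Figure D2:**
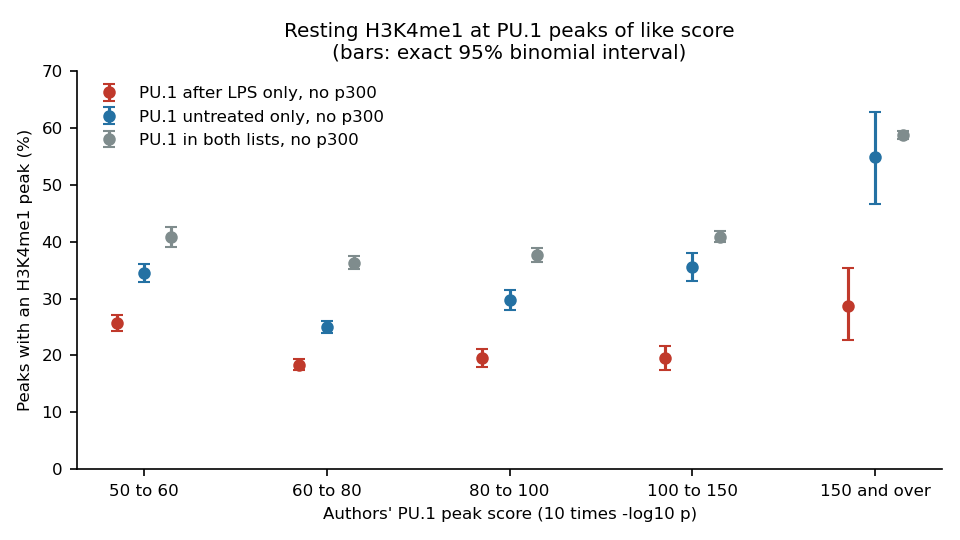
Share of PU.1 peaks overlapping an untreated H3K4me1 peak (y axis, percent) by the authors' PU.1 score range (x axis), with exact 95% intervals as bars. The LPS-only peaks without p300 lie between 18.4% and 28.8%, below the shared peaks, which lie between 36.3% and 58.8%, in all 5 ranges.

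The order turned when sites were matched on PU.1 reads in place of score. At 20 to 39 reads over both libraries, 40.1% of the LPS-only peaks without p300 were marked against 28.7% of shared and 51.7% of untreated-only peaks. At 40 to 79 reads the shares were 64.2%, 50.8% and 77.1%. At 10 to 19 reads they were 12.2%, 12.7% and 16.0%. From 10 reads up, the marked share thus rose with read number in each class, and the place of the LPS-only peaks against shared peaks rests on which measure of PU.1 strength is held equal. Against untreated-only peaks the share was lower by either measure in every range, with overlapping intervals under 10 reads and at 80 or more.

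The median level of H3K4me1 around the centre gave the same order as the peak calls. Within 1 kb of the centre, H3K4me1 over input had a median log2 value of 2.03 at marked peaks (quartiles 1.57 and 2.53) and −0.27 at unmarked peaks (−1.33 and 0.65). At unmarked sites of the other classes it was −0.01 (untreated-only), 0.31 (shared) and 0.63 (LPS-only with LPS p300). Pooled over the called intervals, the order against shared peaks was not kept within either kind. H3K4me1 there was 5.46 times input (5.33 to 5.60) at marked peaks and 5.01 times at marked shared peaks. At unmarked peaks it was 1.32 times (1.29 to 1.35), thus above input, and 1.30 times at unmarked shared peaks. With both kinds together the pooled values kept the order, 2.63 against 3.08 (untreated-only), 3.44 (shared) and 4.38 (with LPS p300). A part of the unmarked peaks lay beside marked chromatin, 9.40% having an H3K4me1 peak within 1 kb, against 18.6% of unmarked shared peaks. The median distance was 14.6 kb.

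H3K4me1 was more centred on these marked peaks than on shared peaks. H3K4me1 over input within 100 bp of the centre, relative to 300 to 700 bp from it, was 1.11 (1.06 to 1.15) at the marked LPS-only peaks without p300. It was 0.794 (0.784 to 0.804) at marked shared peaks and 0.726 (0.654 to 0.806) at marked LPS-only peaks with LPS p300. Marked untreated-only peaks were in between, at 1.02. These ratios depend on input, which was itself denser at the centre, 1.18 times at the marked LPS-only peaks without p300 and 1.34 times at marked shared peaks. In H3K4me1 reads alone, without input, the centre was 1.30 times (1.28 to 1.32) as dense as the flanks at the former, 1.06 times (1.06 to 1.07) at the shared peaks and 0.879 times (0.842 to 0.917) at the peaks with LPS p300. The order of the classes was therefore the same, but a centre below its flanks in the reads themselves was measured over all scores at the peaks with LPS p300 alone. The difference from shared peaks in the ratio to input was also seen at scores of 50 to 80, 1.16 (1.11 to 1.22) against 0.992 (0.959 to 1.03), and at scores of at least 80, 0.979 (0.911 to 1.05) against 0.762.

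**Figure D3:**
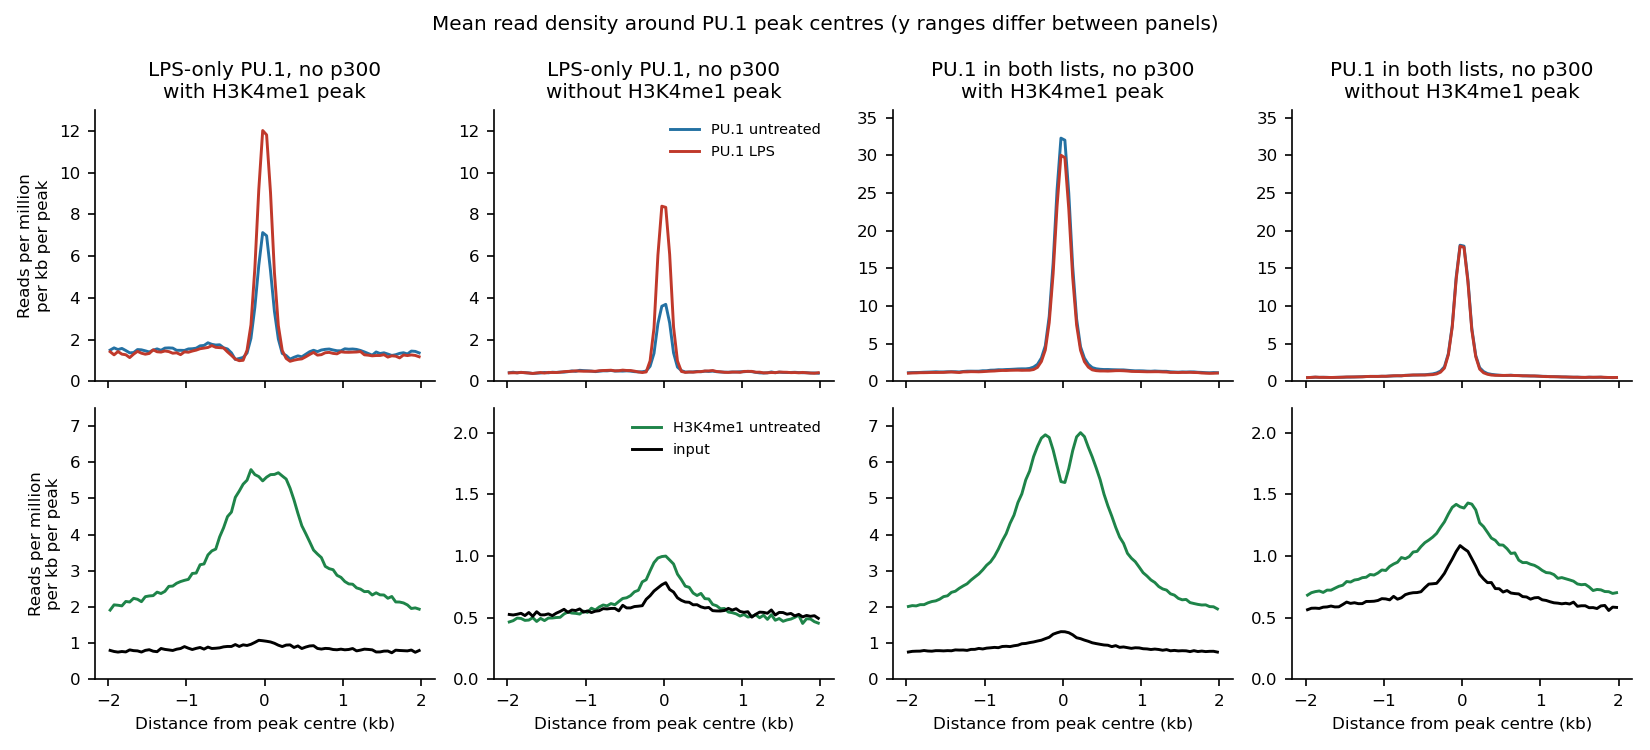
Mean read density by distance from the peak centre (x axis, kb) for PU.1 in both conditions (top) and for H3K4me1 and input in untreated cells (bottom), at LPS-only peaks without p300 and at shared peaks (y axis, depth-scaled reads per kb per peak, with ranges that differ between panels). At marked LPS-only peaks without p300, untreated PU.1 reaches 6.24 within 100 bp of the centre and LPS PU.1 10.5, and at unmarked ones the values are 3.21 and 7.22.

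The absence of a called p300 peak bounds p300 at these sites, yet in replicate 2, and slightly in LPS replicate 1, it stood above input. At marked peaks p300 over input was 0.834 and 1.55 in untreated replicates 1 and 2, and 1.04 and 1.55 in LPS replicates 1 and 2. The means were 1.19 ± 0.507 and 1.29 ± 0.361 (SD, n = 2 each), a log2 difference of 0.12 that is smaller than the spread between replicates. Replicate 2 was also shaped as a peak: it was 2.08 times as dense within 100 bp of the centre as beyond 1500 bp before LPS and 2.13 times after it, against 1.36 times for input. In replicate 1 these values were 1.36 and 1.69. At unmarked peaks the values were 0.927 and 1.19 untreated and 1.03 and 1.30 after LPS, with means of 1.06 ± 0.188 and 1.17 ± 0.193 (SD, n = 2 each) and a log2 difference of 0.14. Across all 4 libraries the conditions overlapped in both kinds. The replicate numbers also separate the libraries technically, with 3.02% and 4.03% repeat reads in replicate 1 and 22.0% and 25.8% in replicate 2. Within replicate numbers 1 and 2 the log2 differences were 0.31 and −0.0035 at marked peaks, and 0.15 and 0.12 at unmarked peaks, where both numbers thus had more p300 after LPS. Shared peaks gave 0.26 and −0.30 (marked) and 0.26 and −0.16 (unmarked). Marked shared peaks also stood above input in replicate 2, at 1.72 times untreated and 1.39 times after LPS. Their centres were 3.205 and 2.65 times as dense as beyond 1500 bp in that replicate, against 1.68 times for input. Whether a replicate number marks a shared culture or batch is not stated. In the mean over all libraries, the direction rests on single libraries: without untreated replicate 1 the log2 difference was −0.26 (marked) and −0.03 (unmarked), without LPS replicate 2 −0.20 and −0.04, without untreated replicate 2 0.63 and 0.33, and without LPS replicate 1 0.38 and 0.30. An exact permutation test of 2 against 2 libraries cannot go below p = 0.333, so none was run. By contrast, marked LPS-only peaks with LPS p300 held 1.12 and 4.41 times input untreated and 2.59 and 7.28 times after LPS, replicate 1 being the lower in each condition.

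**Figure D4:**
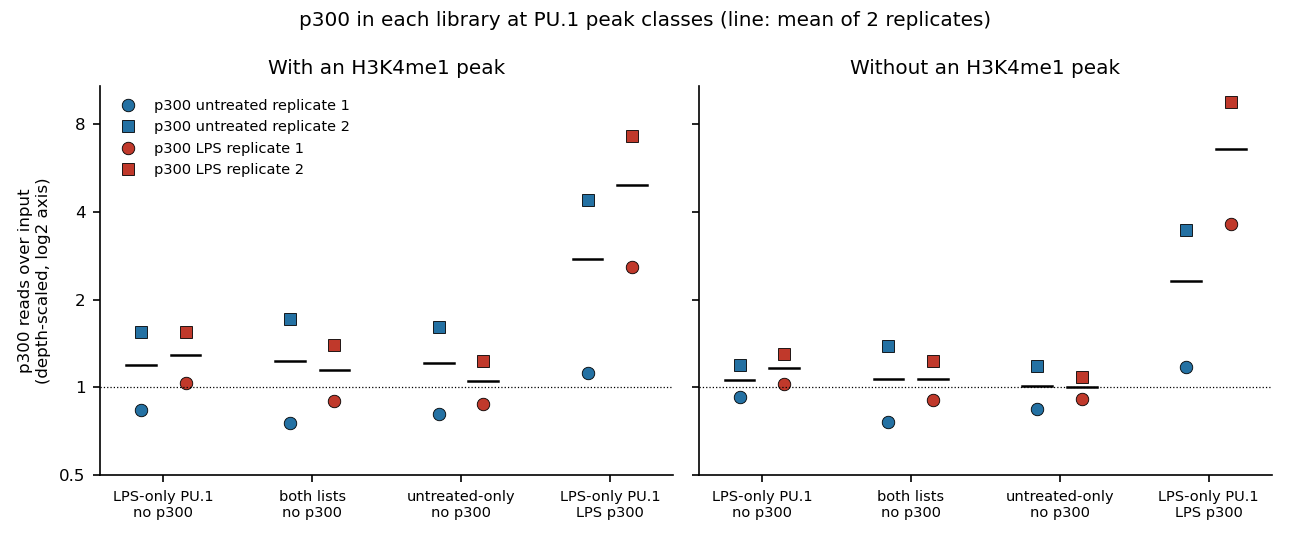
p300 reads over input, scaled to depth (y axis, log scale), in each of the 4 p300 libraries (points, with lines for the mean of 2 replicates) by peak class and H3K4me1 peak. At the LPS-only peaks without p300 the 4 libraries lie between 0.834 and 1.55, and untreated and LPS libraries overlap.

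At the 49 peaks called higher for PU.1, p300 stood at 0.755 and 1.29 times input before LPS and at 1.09 and 2.51 times after it (replicates 1 and 2), from 125, 197, 154 and 375 reads. Within each replicate number p300 was higher after LPS, while LPS replicate 1 lay below untreated replicate 2, so the conditions overlapped across numbers. At the 922 peaks with enough reads that were not called, the values were 0.751 and 1.67, then 0.992 and 1.56. LPS replicate 2 was thus higher at the called peaks than at the others, and LPS replicate 1 was nearly equal between them. A p300 peak called after LPS alone lay within 10 kb of 15 of the 49 called peaks (30.6%, 18.3 to 45.4) and of 170 of the 922 others (18.4%, 16.0 to 21.1), intervals that overlap. Shared peaks were alike in LPS replicate 2 but not in LPS replicate 1. At the 40 shared peaks called higher, p300 was 0.703 and 1.09 times input before LPS and 1.32 and 2.42 after it. There the conditions did not overlap. Shared peaks that were not called had 0.888 and 1.35 after LPS, so each LPS replicate was higher at the called ones. The shares with such a p300 peak within 10 kb were 20.0% (9.05 to 35.65) and 10.4%.

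The marked peaks lay in neighbourhoods already dense in PU.1. A shared PU.1 peak stood within 10 kb of 81.0% of marked and 45.8% of unmarked peaks, at median distances of 3.74 and 11.2 kb. p300 peaks called after LPS alone were within 10 kb of 13.1% of marked and 8.80% of unmarked peaks. p300 peaks called in untreated cells alone were within 10 kb of 15.5% and 7.03%. Marked peaks thus had each of these 3 kinds of neighbour more often than unmarked ones, p300 peaks lost after LPS included. The order was largely the same in the comparison classes. Marked and unmarked untreated-only peaks had a shared PU.1 peak within 10 kb in 83.6% and 51.3%. They had p300 peaks gained after LPS in 11.7% and 7.73%, and lost ones in 17.4% and 7.77%. Shared peaks gave 11.2% and 7.895% for gained p300 peaks, and 15.02% and 7.73% for lost ones. For gained p300 peaks, LPS-only peaks with LPS p300 went the other way, 73.8% and 88.3%. Another LPS-only peak without p300 stood within 10 kb of 19.2% of the peaks, and an untreated-only peak within 10 kb of 19.8%. Within 1 kb the shares were 2.33% (2.09 to 2.59) and 3.37% (3.08 to 3.68). At marked peaks a lost PU.1 call was the more frequent neighbour within 10 kb, 30.2% (28.5 to 31.9) against 24.0% (22.5 to 25.6) for another gained one, and at unmarked peaks the shares were 17.0% and 17.9%. This order was not particular to the marked peaks. Marked shared peaks gave 24.2% and 20.7%, and marked LPS-only peaks with LPS p300 25.5% and 22.9%. At marked untreated-only peaks the shares were nearly equal, 25.75% and 25.85%. Marked untreated-only peaks were also more numerous, 4042 against 2982.

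The PU.1 ratio, on which the peaks were chosen, is given by p300 neighbour as a description. It was 1.69 times (1.65 to 1.73) where a p300 peak lost after LPS stood within 10 kb, and 2.15 times (2.12 to 2.18) where the nearest was beyond 100 kb. Within the marked peaks the values were 1.46 and 1.73, and within the unmarked ones 2.03 and 2.32, so the order was the same in both. Near a p300 peak gained after LPS the ratio was higher within each kind: 1.80 (1.74 to 1.86) within 10 kb against 1.62 (1.59 to 1.66) beyond 100 kb at marked peaks, and 2.34 (2.26 to 2.41) against 2.203 (2.17 to 2.24) at unmarked peaks. Over both kinds together the values were 2.08 and 2.02, with 1.99 at 10 to 100 kb. Untreated-only peaks also had the higher ratio near gained p300 peaks. Theirs was 0.654 within 10 kb against 0.529 beyond 100 kb (marked), and 0.548 against 0.459 (unmarked). Near lost p300 peaks their ratio was not lower, 0.563 against 0.562 (marked) and 0.521 against 0.469 (unmarked).

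Across chromosomes the peaks were spread evenly. They were 17.1% to 20.6% of the LPS PU.1 peaks on each of the 19 autosomes and 21.3% on X. The H3K4me1 share was 16.1% to 27.4% on autosomes but 6.68% on X, where 27 of 404 peaks were marked. Shared peaks on X were also less often marked, 23.4% against 41.9% to 53.0% on autosomes, as were untreated-only peaks, 14.4% against 24.0% to 35.4%.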

How the data were processed

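ChIP-seq of PU.1, p300, H3K4me1 and input was analysed from peak lists and aligned reads as deposited. The build was mm9, per the submitters' processing notes. The authors called peaks with MACS, as the column description deposited with them says. Their deposited score is 10 times the −log10 p-value. Per the file headers, PU.1 was called against a control named random, p300 against one named naked and H3K4me1 against input. The untreated PU.1 list carries LPS in its header. Its sample's label was followed, and reads at untreated-only peaks were higher in the untreated library. Replicate reads were merged for the p300 lists, per the series' design text. The aligner and versions are not given in the sources used here.

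From the reads, 1 per position and strand was kept and 5′ ends were moved 100 bp. Counts in the called intervals were scaled by distinct reads on chromosomes 1 to 19 and X, and overlap meant at least 1 bp. H3K4me1 ratios had 1 read added to each library and PU.1 log2 ratios 0.5 reads. Shares carry Clopper-Pearson intervals and ratios exact intervals conditional on the sum. The centre-to-flank ratios of H3K4me1 over input carry approximate intervals. Python 3.11.15, numpy 2.4.6, pandas 2.3.3, scipy 1.17.1 and matplotlib 3.10.9 were used, and the code was tested on 50 simulated sets.

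Named peaks were, among those with at least 40 PU.1 reads, the 5 of each kind with the highest lower bound of the ratio and the 2 with the lowest ratio, and the 3 of each kind with the highest score. The peaks, classes and lists were chosen with earlier results of these data known. Genes, cell type markers, motifs and sequences of mm9 were not analysed here.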

Additional observations from a re-analysis of the deposited data

How the results depend on the processing

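Restricting to scores of at least 100 left 1624 peaks, with PU.1 ratios of 2.195 (marked) and 2.99 (unmarked) and a median H3K4me1 log2 ratio of −0.15 at unmarked peaks. Excluding peaks within 500 bp of an untreated PU.1 peak or of a p300 peak gave a marked share of 18.7%, PU.1 ratios of 1.69 and 2.28, and −0.33 for H3K4me1 at unmarked peaks. Requiring the centre inside the H3K4me1 peak gave 16.8%. Scaling by shared PU.1 peaks gave PU.1 ratios of 1.70 and 2.31, windows of 200 bp on each side, chosen after seeing the data, 1.62 and 2.125, and a 50 bp shift 2.19 at unmarked peaks. H3K4me1 within 500 bp of the centre was 2.24 (marked) and −0.011 (unmarked), and with all reads kept 2.07 at marked peaks. The p300 log2 difference ran from −0.26 to 0.63 (marked) and −0.04 to 0.33 (unmarked) as each replicate was left out. In all these settings for PU.1, the ratio was higher at unmarked than at marked peaks. It also stayed above 1, which the choice of LPS-only peaks largely sets in every setting. At under 40 reads, single-site ratios carry wide intervals. With the replicate number as a block, added after seeing the data, the p300 log2 difference was 0.15 (marked) and 0.14 (unmarked). Without a read minimum, also added then, 299 peaks were called higher for PU.1, against 49. The planned motif alternatives were not run.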

Other observations

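Outside chromosomes 1 to 19 and X, 89 peaks of the LPS PU.1 list lay on other sequences, and 26 of them met the same rule. These 26 held 155 untreated and 350 LPS PU.1 reads beside 337 input reads, so the LPS library stood 1.04 times (0.891 to 1.21) above input there, an interval that includes 1.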
